A study of Homo sapiens with 24 samples.

Results

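MOLT4 is a human cell line derived from T-cell acute lymphoblastic leukaemia, and SK-3-91 is described by its submitters as a degrader directed at many kinases. The comparison described here sets 4 RNA-seq libraries of MOLT4 cells kept with SK-3-91 for 4 h against 4 libraries of MOLT4 cells kept with the solvent DMSO for 4 h, that is 8 of the 24 libraries of the series, across all 9822 genes of the deposited count table. The other 16 libraries are the same treatments at 1 h and 8 h, with 4 libraries per group. All groups were grown in the same serum-supplemented medium, and no source used here states the dose of SK-3-91. MOLT4 is 1 established line, and nothing in the labels says that the 4 libraries of a group came from separate cultures, so each p-value reflects only how these libraries scatter, possibly for technical reasons.

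A degrader of this kind joins a ligand for its target proteins to a ligand for an E3 ubiquitin ligase, so that the targets are marked with ubiquitin and destroyed by the proteasome. Kinases relay signals from surface receptors, drive the cell cycle and, as the CDKs of the transcription machinery, phosphorylate RNA polymerase II so that it can start and elongate transcripts. When transcription of a gene slows, its mRNA falls only as fast as that mRNA decays. Many transcription factors and signalling inhibitors are known for short-lived mRNAs, and ribosomal proteins and metabolic enzymes for long-lived ones; mRNA lifetimes were not measured here.

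The T-lineage label fitted the transcripts that were measured. Of 19 T-cell marker genes, 18 were among the genes analysed, and their summed level was 4535 to 4845 CPM, counts scaled to library size, in SK-3-91 libraries and 4354 to 4488 CPM in DMSO libraries. Of 8 B-cell markers 3 were present, summing to 151 to 158 CPM in SK-3-91 libraries and 153 to 165 CPM in DMSO libraries. Only CD68 of 7 myeloid markers and PECAM1 of 7 fibroblast and endothelial markers were present, CD68 at 3.21 to 5.63 CPM in SK-3-91 libraries and 1.47 to 1.94 CPM in DMSO libraries, although CD68 is uncertain because 93.6% of its sequence words occur in other genes. None of 8 erythroid and of 6 epithelial markers was among the genes analysed. Levels in CPM are scaled with TMM factors, which assume that most genes do not change. The factors were 0.884 to 0.901 in SK-3-91 libraries and 1.099 to 1.104 in DMSO libraries. Each fold change is therefore relative to the bulk of genes, which differs from a change in share of counted reads. It says nothing of the amount per cell.

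SK-3-91 libraries held 10643844 to 10870410 counted reads and DMSO libraries 14273165 to 14549533. In megareads the means were 10.78 ± 0.0975 in SK-3-91 and 14.43 ± 0.117 in DMSO (SD, n = 4 each), a ratio of 74.7%, with an exact two-sided permutation p = 0.029, the smallest that 4 against 4 libraries allow. These totals cover the genes of the table and not whole libraries. Counted reads measure neither the number of cells nor the RNA per cell, and what set the difference was not tested.

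Most of the measured transcriptome differed after 4 h. edgeR's quasi-likelihood test with Benjamini-Hochberg adjustment called 8632 of 9822 genes at an adjusted p under 0.05 (87.9%), with 4121 higher (42%) and 4511 lower (45.9%). The decreases were larger: 1786 genes were called and at least 2-fold lower (18.2%), and 904 were called and at least 2-fold higher (9.2%). With the edgeR test set to demand a fold above 1.5, 2525 genes were lower (25.7%) and 1938 higher (19.7%). The 5th and 95th percentiles of the log2 fold change were -2 and 1.2, the median was -0.05, and the median standard error was 0.06. Standard errors (SE) of log2 fold changes were worked back from the F statistic of the quasi-likelihood test. For genes with few reads they can fall below counting error. All 4 SK-3-91 libraries lay on one side of all 4 DMSO libraries for 8185 genes (83.3%). Because nearly every gene passed the test, counts of genes at least 2-fold apart carry more of the description than counts of calls. Without scaling factors the median of all genes shifted by -0.30 on the log2 scale, the split was 2871 higher and 5752 lower, and 250 called genes turned direction.

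**Figure D1:**
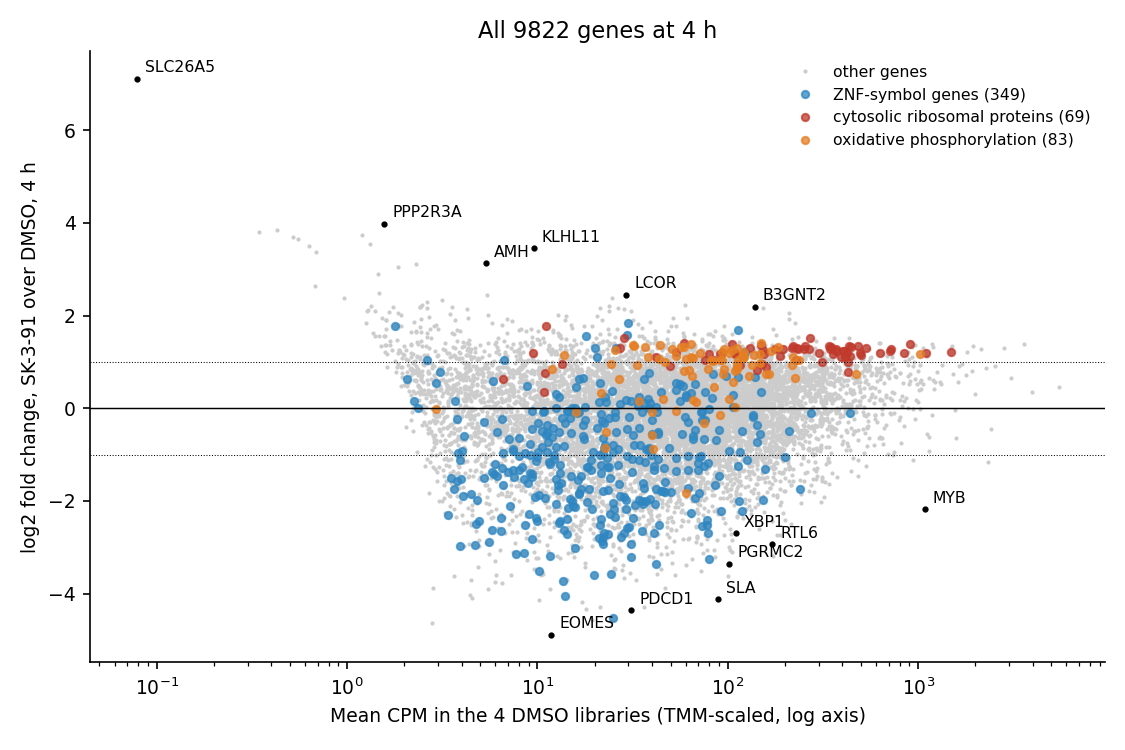
Each point is 1 of 9822 genes, with its mean CPM in the 4 DMSO libraries on a log axis and its log2 fold change, SK-3-91 over DMSO at 4 h, on the vertical axis; dotted lines mark 2-fold. Cytosolic ribosomal protein genes (69) all lie above 0, most oxidative phosphorylation genes (83) do too, and ZNF-symbol genes (349) have a median of -1.05.

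Several of the largest increases were in genes with few reads in DMSO cells. SLC26A5, which encodes prestin, the motor protein of cochlear outer hair cells, had 12.6, 10.6, 14.2 and 11.5 CPM in SK-3-91 libraries and 0.0626, 0.063, 0.188 and 0 CPM in DMSO libraries. Its summed counts were 471 in SK-3-91 and 5 in DMSO, a ratio of 155 with a 95% counting interval of 66 to 480. No SK-3-91 library came near the DMSO range. PPP2R3A, a regulatory subunit of protein phosphatase 2A, had 24.7, 23.4, 25.7 and 25.4 CPM in SK-3-91 libraries and 1.31, 1.83, 1.38 and 1.72 CPM in DMSO libraries, a log2 fold change of 3.98 ± 0.14 (SE, n = 4 per group; edgeR adjusted p = 1e-26). KLHL11, a Kelch-repeat adaptor of cullin ubiquitin ligases, had 99.7, 101, 104 and 114 CPM in SK-3-91 libraries and 11.1, 7.81, 8.82 and 10.4 CPM in DMSO libraries (3.45 ± 0.07; edgeR adjusted p = 4.2e-34). The 2 groups were far apart for both genes, and replicates within a group lay close together. LSMEM1, a single-pass membrane protein gene, had 14.5 to 19.3 CPM in SK-3-91 libraries and 0.875 to 1.5 CPM in DMSO libraries (3.73 ± 0.15). AMH, the gene of anti-Müllerian hormone, had 45.5 to 49.5 CPM in SK-3-91 libraries and 4.28 to 6.5 CPM in DMSO libraries (3.13 ± 0.12).

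The other genes of the 10 largest increases stayed at low levels with SK-3-91. PKD1L3, a polycystin-family membrane protein gene, had summed counts of 242 in SK-3-91 and 27 in DMSO, a ratio of 14.8 (95% counting interval 9.9 to 22.9). The ratio was 12.7 (8.91 to 18.6) for PRSS12, the gene of the serine protease neurotrypsin, and 11.4 (8.19 to 16.4) for NNAT, the imprinted gene of neuronatin. It was 10.5 (7.6 to 14.7) for RASL11A, a Ras-like GTPase gene. LINC00926, a long noncoding RNA gene, rose by 3.53 ± 0.16. The 10 genes were chosen among those whose SK-3-91 and DMSO libraries did not overlap, so the gap between the groups is no further result.

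Among genes of at least 100 CPM with SK-3-91, KLHL11 led and 5 others followed. LCOR, which encodes a ligand-dependent corepressor of nuclear receptors, had 157, 157, 164 and 160 CPM in SK-3-91 libraries and 31.7, 27.1, 29.8 and 27.9 CPM in DMSO libraries (log2 fold change 2.45 ± 0.07; edgeR adjusted p = 4.1e-29). B3GNT2, an enzyme that builds poly-N-acetyllactosamine chains on glycoproteins, had 631, 609, 616 and 671 CPM in SK-3-91 libraries and 141, 137, 143 and 132 CPM in DMSO libraries (2.19 ± 0.04). The lowest SK-3-91 library exceeded the highest DMSO library more than 4-fold in both genes. RNF139, an E3 ubiquitin ligase gene of the endoplasmic reticulum, rose by 2.23 ± 0.05, the copine gene CPNE7 by 2.37 ± 0.07 and the sphingolipid enzyme gene SAMD8 by 2.20 ± 0.06.

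The largest decreases brought genes of DMSO cells to traces. EOMES, a T-box transcription factor of effector T cells, had 0.209, 0.622, 0.625 and 0.102 CPM in SK-3-91 libraries and 13.3, 11, 11.4 and 11.3 CPM in DMSO libraries. Its summed counts were 15 in SK-3-91 and 747 in DMSO, and the level was 30.2-fold lower with SK-3-91 (95% counting interval 18.2 to 54.3). PDCD1, the gene of the inhibitory receptor PD-1, had 1.67, 1.87, 1.15 and 1.33 CPM in SK-3-91 libraries and 28.2, 29.5, 30.8 and 35.6 CPM in DMSO libraries (log2 fold change -4.36 ± 0.14; edgeR adjusted p = 1.4e-27). The groups lay far apart for both of these T-cell genes. SLA, the Src-like adaptor that dampens T-cell receptor signalling, had 5.85, 4.04, 5 and 5.62 CPM in SK-3-91 libraries and 83.5, 93.3, 92.4 and 85.9 CPM in DMSO libraries (-4.11 ± 0.08; edgeR adjusted p = 7.9e-34).

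The remaining 7 of the 10 largest decreases had at most 1.99 CPM in any SK-3-91 library. Levels were 24-fold lower for C17orf97 (95% counting interval 16.8 to 35.5), 23.4-fold lower for the zinc-finger gene ZNF200 (17.1 to 32.7) and 20.4-fold lower for PARS2, the mitochondrial prolyl-tRNA synthetase gene (14.5 to 29.6). They were 19.6-fold lower for ZC3H10, a zinc-finger protein gene of the CCCH type (14.4 to 27.3), 18.3-fold lower for ZSWIM3 (13.1 to 26.3) and 17.9-fold lower for ADM, the gene of the vasodilator peptide adrenomedullin (11.7 to 28.7). LOC100506688 fell by 4.29 ± 0.12 on the log2 scale. PARS2, ZC3H10 and ZSWIM3 were already lower at 1 h, with log2 fold changes of -2.30, -2.21 and -1.91, whereas ADM was not called at 1 h (-0.60; edgeR adjusted p = 0.30).

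Abundant genes fell as well. PGRMC2, a membrane-bound haem-binding protein gene, had 11.1, 10.1, 9.59 and 8.9 CPM in SK-3-91 libraries and 97.9, 105, 104 and 98.4 CPM in DMSO libraries (log2 fold change -3.35 ± 0.07; edgeR adjusted p = 2.9e-34). KEAP1, the cullin-3 adaptor that targets the antioxidant factor NRF2 for degradation, had 13.5, 10.3, 12 and 13.4 CPM in SK-3-91 libraries and 103, 102, 107 and 109 CPM in DMSO libraries (-3.10 ± 0.07). CD2, an adhesion receptor of T cells, had 12.3, 12.8, 11.8 and 12 CPM in SK-3-91 libraries and 102, 99.8, 107 and 101 CPM in DMSO libraries (-3.07 ± 0.06). Each DMSO library exceeded each SK-3-91 library more than 7-fold in these genes. IRF2BP2, a transcriptional corepressor gene, fell by 3.18 ± 0.06, and RTL6, a retrotransposon-derived gene, by 2.92 ± 0.05. GEMIN4, a component of the SMN complex that assembles spliceosomal particles, had 11.4 to 13.9 CPM in SK-3-91 libraries and 98.9 to 106 CPM in DMSO libraries.

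**Figure D2:**
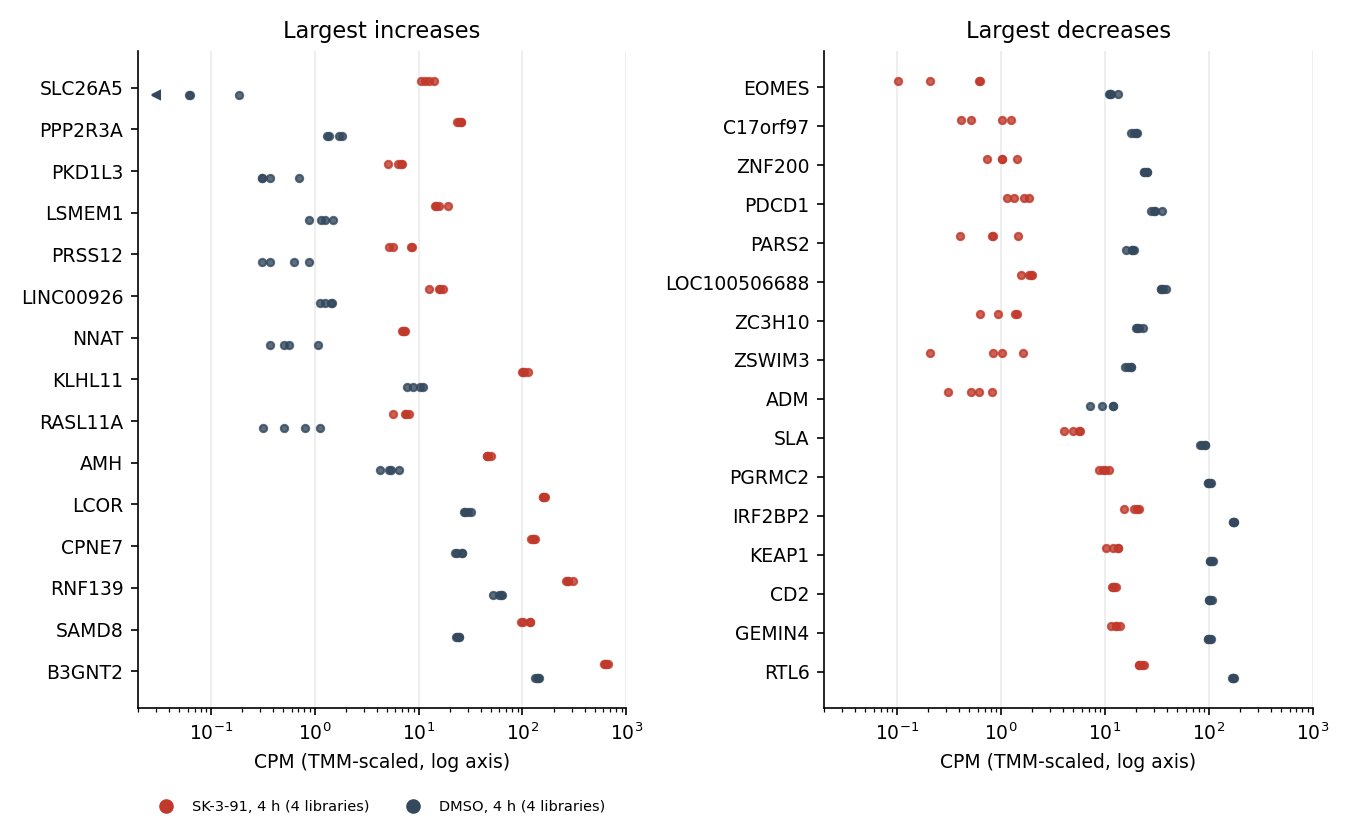
CPM of each 4 h library on a log axis for the genes with the largest increases (left) and decreases (right), the 4 SK-3-91 libraries (red) above the 4 DMSO libraries (dark blue) of each gene. The triangle marks the DMSO library in which SLC26A5 had 0 counts. The genes shown were chosen among those whose 2 groups do not overlap.

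Cytosolic ribosomal proteins, the protein parts of the ribosome that makes nearly all cellular protein, moved as 1 block. All 69 measured genes were higher with SK-3-91, and 57 of them at least 2-fold, where 9.2% of all genes were. Their median log2 fold change was 1.20, with a range of 0.35 to 1.77, against -0.05 over all genes. Summed over the 69 genes, SK-3-91 libraries had 48346, 48389, 44472 and 47861 CPM and DMSO libraries 19249, 20312, 20488 and 21277 CPM. Every SK-3-91 library exceeded every DMSO library more than 2-fold, and SK-3-91 replicate 3 was the lowest of its group. As a share of all counted reads without scaling, they made up 4.01% to 4.33% in SK-3-91 libraries and 2.12% to 2.34% in DMSO libraries. RPLP2, an acidic stalk protein gene, had 828, 794, 684 and 766 CPM in SK-3-91 libraries and 241, 274, 278 and 288 CPM in DMSO libraries (1.51 ± 0.07; edgeR adjusted p = 7.6e-23). Its partner gene RPLP1 rose by 1.38 ± 0.06, and the small-subunit gene RPS19 by 1.33 ± 0.05. Many ribosomal protein genes have near-identical pseudogenes, and 43 of the 69 are uncertain because at least 20% of their sequence is shared with, or lies opposite to, another gene. Of the 26 others, 26 were higher, 24 at least 2-fold, with a median of 1.23. Without scaling factors 68 of the 69 were still called higher and 16 were at least 2-fold higher, with a median of 0.90.

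Ribosomal protein genes are known for a run of pyrimidines that begins with a C at the first transcribed base, the element through which mTOR signalling controls their translation. RefSeq (GRCh38.p14) gave a start window for 55 of the 69 genes. A C followed by at least 4 further C or T from the first transcribed base stood in 37 of the 55 (67.3%), in 5.6% of the 8103 tested genes with a window and in 4.04% of all 27305 windows. The 7 windows of 30 bases printed here belong to the genes with the largest increases among those free of the doubt above. They show what the element looks like in 6 of these genes, and a start without it in RPL27. Each starts 15 bases upstream of the first transcribed base, is read along the gene's strand, and has in capitals the unbroken run of C and T that begins with a C at that base:
RPLP2, chr11:809952-809981, plus strand: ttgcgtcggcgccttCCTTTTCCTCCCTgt
RPLP1, chr15:69452803-69452832, plus strand: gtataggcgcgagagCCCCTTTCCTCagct
RPS19, chr19:41860240-41860269, plus strand: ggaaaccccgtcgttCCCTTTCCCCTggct
RPL27, chr17:42998404-42998433, plus strand: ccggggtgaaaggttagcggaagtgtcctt
RPS21, chr20:62387088-62387117, plus strand: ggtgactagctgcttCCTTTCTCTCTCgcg
RPL37A, chr2:216498829-216498858, plus strand: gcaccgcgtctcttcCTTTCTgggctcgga
RPL38, chr17:74203663-74203692, plus strand: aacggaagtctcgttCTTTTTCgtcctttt

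RPL27, with no run, rose by 1.33 and RPLP1, with a run of 11 bases, by 1.38. Over the 55 genes the median log2 fold change was 1.23 with the run and 1.11 without it. Of the 718 tested genes at least 2-fold higher that had a window, 10.2% had the run, and 5.93% of the 674 left once ribosomal protein genes were set aside. Among the 1479 genes at least 2-fold lower the share was 5.27%. Translation factors, which initiate and elongate protein synthesis, had the run in 11 of 48 windows (22.9%), with a median of 0.45 with it and -0.01 without it. The pyrimidine run is a match of letters in RefSeq starts, and transcription start use in MOLT4 was not measured.

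Nuclear genes of oxidative phosphorylation, whose products form the respiratory chain and the ATP synthase of mitochondria, mostly rose. Of 83 genes listed, 2 of them antisense transcripts of such genes (NDUFB2-AS1 and COX10-AS1), 71 were higher and 7 lower, 40 of them by 2-fold or more upward and 1 downward, with a median log2 fold change of 0.98. Their summed level averaged 16332 ± 601 CPM in SK-3-91 libraries and 8440 ± 192 CPM in DMSO libraries (SD, n = 4 each). All 11 subunits of complex IV, the cytochrome c oxidase, were higher, with log2 fold changes of 0.98 to 1.40, and so were all 14 of complex V, the ATP synthase (0.69 to 1.37), and all 8 of complex III (0.17 to 1.25). Complex I, the NADH dehydrogenase, was less uniform, with 27 of 32 higher and 2 lower. Of 16 assembly and regulatory factors 10 were higher, 5 lower and 0 at least 2-fold apart, with a median of 0.20. ATP5MG, an ATP synthase subunit gene, had 478, 440, 452 and 465 CPM in SK-3-91 libraries and 175, 183, 181 and 192 CPM in DMSO libraries (1.33 ± 0.05; edgeR adjusted p = 3.5e-24). NDUFA4, a cytochrome c oxidase subunit gene, rose by 1.36 ± 0.06 and COX7A2 by 1.32 ± 0.08. NDUFV3, a small subunit of complex I, went the other way, with 18.3, 16.1, 14.6 and 18.7 CPM in SK-3-91 libraries and 61.1, 60, 59.6 and 60.6 CPM in DMSO libraries (-1.83 ± 0.06). It was the single member at least 2-fold lower, and its groups were as clearly apart as those of the rising subunits. Of the 83 genes 20 are uncertain, and among the other 63 the counts were 53 higher and 6 lower. Without scaling factors 65 of the 83 were higher and 15 lower, with 10 at least 2-fold higher.

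Enzymes of central carbon metabolism followed. In the citric acid cycle 18 of 22 genes were higher and 3 lower (median 0.58), with the malate dehydrogenase gene MDH2 at 670 to 774 CPM in SK-3-91 libraries and 309 to 321 CPM in DMSO libraries (log2 fold change 1.20 ± 0.05; edgeR adjusted p = 1.1e-24). Of 26 glycolysis genes 16 were higher and 8 lower (median 0.74), 11 of them by 2-fold or more upward and 3 downward. The aldolase gene ALDOC rose by 1.54 ± 0.05 and GAPDH, which is uncertain because 32.9% of its sequence words occur in other genes, by 1.38 ± 0.05. Without the 7 uncertain genes 10 glycolysis genes were higher and 7 lower, with a median of 0.24. The 3 members that fell by 2-fold or more were a regulator and a pair of transporters. PFKFB3, whose product makes the activator of phosphofructokinase, had 22.8, 20.4, 22.5 and 22 CPM in SK-3-91 libraries and 99.8, 113, 115 and 118 CPM in DMSO libraries (-2.35 ± 0.06; edgeR adjusted p = 4e-30). SLC2A1, the glucose transporter GLUT1, had 35.7 to 42.4 CPM in SK-3-91 libraries and 105 to 119 CPM in DMSO libraries (-1.56 ± 0.07), and SLC16A3, a lactate exporter gene, fell by 1.74 ± 0.21. Without scaling factors 5 glycolysis genes were higher by 2-fold or more and 6 lower, so the balance within that list depends on the scaling.

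Lysosomal, proteasomal and splicing genes leaned upward to a lesser extent. Of 39 lysosome and proton-pump genes 26 were higher and 6 lower (median 0.48). PSAP, the precursor of the saposins that help break down sphingolipids, had 3050, 3043, 2885 and 3001 CPM in SK-3-91 libraries and 1130, 1195, 1237 and 1220 CPM in DMSO libraries (1.32 ± 0.04; edgeR adjusted p = 2.3e-28), and the protease gene CTSB rose by 1.39 ± 0.05. NPC1, a lysosomal cholesterol exporter gene, fell by 1.26 ± 0.09. Of 39 proteasome genes 27 were higher and 10 lower (median 0.41), among them the core subunit gene PSMA7 at 1.18 ± 0.05 and the activator gene PSME1 at 1.15 ± 0.05. The catalytic subunit gene PSMB5 fell, with 23, 27.4, 22.2 and 22.5 CPM in SK-3-91 libraries and 74.3, 68.5, 71.8 and 76 CPM in DMSO libraries (-1.61 ± 0.07; edgeR adjusted p = 1.2e-23). No proteasome promoter of 33 with a window carried the pyrimidine run. Of 53 core spliceosome and SR protein genes 34 were higher and 14 lower (median 0.35). Without scaling factors these medians were 0.05 for splicing genes, with 26 higher and 21 lower, and 0.11 for proteasome genes, with 20 higher and 12 lower. The splicing regulators TRA2B and CLK1 rose by 1.27 ± 0.03 and 1.32 ± 0.05, and the core particle gene SNRPD2 by 1.21 ± 0.06, whereas PRPF4, a component of the U4/U6 particle, had 24.9 to 29.5 CPM in SK-3-91 libraries and 126 to 137 CPM in DMSO libraries (-2.28 ± 0.05). Among 8 measured antigen presentation genes 7 were higher and 1 lower: B2M, the light chain of class I molecules, rose by 1.16 ± 0.04 and the chaperone gene CALR fell by 0.64 ± 0.04.

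Zinc-finger transcription factors were the most numerous of the lists that fell. Most ZNF-symbol genes encode DNA-binding proteins with tandem C2H2 fingers, many of them repressors with a KRAB domain. Of 349 measured ZNF-symbol genes 267 were lower and 48 higher, and 184 were at least 2-fold lower (52.7%) where 18.2% of all genes were. Their median log2 fold change was -1.05, and it was -0.66 at 1 h and -0.90 at 8 h. Their summed level averaged 9119 ± 139 CPM in SK-3-91 libraries and 12817 ± 87.7 CPM in DMSO libraries (SD, n = 4 each). ZNF583 had 0.732, 1.24, 0.521 and 0.818 CPM in SK-3-91 libraries and 13, 15.4, 13.7 and 13.6 CPM in DMSO libraries (-4.05 ± 0.18; edgeR adjusted p = 6.9e-23). ZNF16 fell by 3.74 ± 0.16, and ZNF691 fell by 3.60 ± 0.13. These genes, like ZNF200, were left at trace levels in every SK-3-91 library, ZNF691 at most at 2.4 CPM. Other zinc-finger factors behaved alike in number: of 57 genes with ZBTB, ZSCAN, ZKSCAN and related symbols 41 were lower and 13 higher, 32 of them at least 2-fold lower, with a median of -1.26. ZKSCAN4 fell by 3.11 ± 0.17, ZSCAN26 by 2.56 ± 0.10 and ZBTB48, a telomere-binding protein gene, by 2.56 ± 0.11. Members of such families share sequence, and 67 of the 349 ZNF-symbol genes are uncertain; among the other 282, 211 were lower and 43 higher. Of 14 KLF and SP factors, which bind GC-rich promoter elements, 6 were lower (42.9%) and 5 higher (35.7%), beside 45.9% and 42% of all genes. SP1 was at -1.58 ± 0.05, KLF3 at -1.85 ± 0.09 and KLF6 at 1.95 ± 0.05.

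Subunits of the RNA polymerases were listed by polymerase, although some kept with polymerase II, POLR2F and POLR2E among them, belong to all of the polymerases. RNA polymerase II, which makes mRNA, had 9 of 12 subunit genes higher (75%) and 3 lower (25%), beside 42% and 45.9% of all genes. Their median was 0.65, with POLR2F at 1.00 ± 0.06, POLR2G at 0.87 ± 0.06 and POLR2D at -1.22 ± 0.05. Without 3 uncertain genes 6 were higher and 3 lower. Polymerases I and III, which make ribosomal and transfer RNA, had 4 of 18 higher (22.2%) and 11 lower (61.1%), 8 of them at least 2-fold lower (median -0.60). POLR3D had 11.2, 10.8, 10.6 and 12.9 CPM in SK-3-91 libraries and 62, 65.8, 60.2 and 58.5 CPM in DMSO libraries (-2.44 ± 0.07; edgeR adjusted p = 1.8e-29). POLR1E fell by 2.01 ± 0.07 and POLR1B by 1.95 ± 0.06. Of 32 subunits of Mediator, which links activators to polymerase II, 18 were lower (56.2%) and 10 higher (31.2%), with a median of -0.29. By 2-fold or more 25% were lower, beside 18.2% of all genes. Their summed level barely differed, at 2508 ± 27.6 CPM in SK-3-91 libraries and 2522 ± 28.2 CPM in DMSO libraries (SD, n = 4 each). MED8 had 3.53 to 5.75 CPM in SK-3-91 libraries and 30.1 to 33.5 CPM in DMSO libraries (-2.71 ± 0.11). Elongation factors showed no common direction, with 17 of 39 higher (43.6%) and 15 lower (38.5%). MEPCE, which caps the 7SK RNA that holds the elongation kinase P-TEFb inactive, had 36.6, 36.7, 41 and 38 CPM in SK-3-91 libraries and 221, 206, 214 and 215 CPM in DMSO libraries (-2.49 ± 0.05; edgeR adjusted p = 6.5e-34). CCNT2, a cyclin of P-TEFb, had 186, 194, 192 and 228 CPM in SK-3-91 libraries and 74.8, 73.6, 73.7 and 71.4 CPM in DMSO libraries and rose by 1.44 ± 0.07. These genes of 1 regulatory circuit moved in opposite directions.

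Ribosome assembly and mitochondrial translation did not share the rise of the cytosolic ribosomal proteins. Of 58 ribosome biogenesis genes, which build ribosomes in the nucleolus, 42 were lower and 15 higher, 16 at least 2-fold lower (median -0.52). Their summed level barely differed, at 11104 ± 106 CPM in SK-3-91 libraries and 10971 ± 83.8 CPM in DMSO libraries (SD, n = 4 each). BYSL, a factor of the small subunit, had 25, 26.7, 25.9 and 26.6 CPM in SK-3-91 libraries and 96.7, 97.7, 98.4 and 104 CPM in DMSO libraries (-1.93 ± 0.05; edgeR adjusted p = 7.7e-30), and RRP1 and WDR75 fell by 1.73 ± 0.06 and 1.60 ± 0.06. Of 69 mitochondrial ribosomal protein genes 41 were lower and 24 higher (median -0.21), and 21.7% were at least 2-fold lower where 18.2% of all genes were, with MRPL36 at -2.52 ± 0.13 and MRPS31 at -2.15 ± 0.09. Of 13 mitochondrial tRNA synthetase genes 10 were lower and 2 higher, led by PARS2 and by HARS2 at -1.64 ± 0.06. The cytosolic initiation factor gene EIF1, which guards start-codon choice, rose to 1188 to 1330 CPM in SK-3-91 libraries, against 417 to 450 CPM in DMSO libraries (1.52 ± 0.05).

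Genes of recombination and mitosis mostly fell, and those of DNA replication leaned down. Of 59 replication genes 34 were lower and 22 higher (median -0.28), which is 57.6% and 37.3% beside 45.9% and 42% of all genes. Their summed level was nevertheless higher with SK-3-91, at 12611 ± 263 CPM against 11689 ± 192 CPM in DMSO libraries (SD, n = 4 each). CCNE1, the cyclin that drives entry into S phase, had 10.3, 9.75, 9.9 and 11.5 CPM in SK-3-91 libraries and 44.7, 42.6, 45.3 and 48.7 CPM in DMSO libraries (-2.13 ± 0.08; edgeR adjusted p = 9.7e-26). The chromatin assembly gene CHAF1A fell by 1.79 ± 0.04 and the origin recognition gene ORC5 by 1.69 ± 0.06. Among 40 genes of homologous recombination and the Fanconi pathway, which repair breaks and crosslinks, 29 were lower and 7 higher, 14 of them by 2-fold or more downward and 0 upward. EXO1, the exonuclease that resects broken ends, had 8.36, 7.88, 9.07 and 11.2 CPM in SK-3-91 libraries and 85.4, 88.4, 83.6 and 83.7 CPM in DMSO libraries (-3.22 ± 0.07; edgeR adjusted p = 7.8e-33). FANCE fell by 2.31 ± 0.11 and PALB2 by 1.82 ± 0.08. Of 72 kinetochore and mitosis genes 49 were lower and 20 higher (median -0.48), with the kinetochore gene MIS12 at -2.72 ± 0.09, the cyclin gene CCNF at -2.02 ± 0.05 and the centromeric histone gene CENPA at -1.76 ± 0.07. RAD18, a ubiquitin ligase of translesion repair, rose to 251 to 276 CPM in SK-3-91 libraries, against 88.8 to 98 CPM in DMSO libraries (1.47 ± 0.05). CDK inhibitor genes diverged: CDKN2D rose by 1.67 ± 0.05, CDKN2C fell by 1.67 ± 0.05 and CDKN1B by 1.20 ± 0.06.

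**Figure D3:**
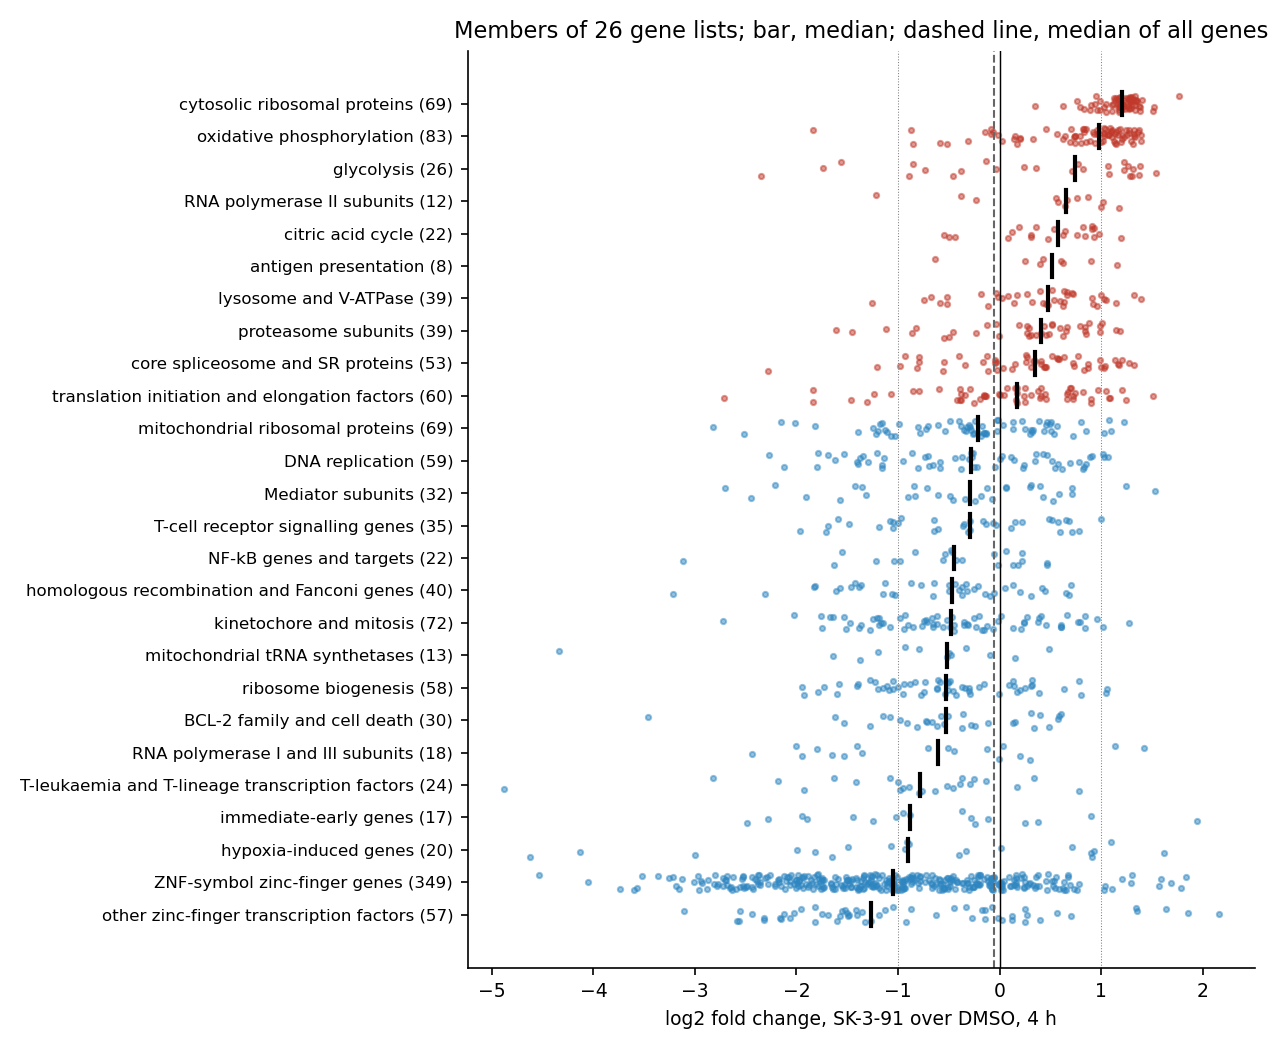
Log2 fold changes at 4 h, SK-3-91 over DMSO, of the members of 26 gene lists ordered by their median (black bar), with the number of measured members in brackets; red lists have a median above 0 and blue lists below 0. The dashed line is the median of all genes (-0.05) and dotted lines mark 2-fold; all ribosomal protein genes lie right of 0 and ZNF-symbol genes spread from -4.53 to 1.83.

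Genes of the responses to amino-acid lack and low oxygen had more lower than higher members, where 45.9% of all genes were lower and 42% higher. Those of the response to endoplasmic reticulum stress lay near these shares. In that list, of the unfolded protein response, 10 of 22 were higher (45.5%) and 11 lower (50%), with a median of -0.19. Without 3 uncertain members 7 were higher and 11 lower (median -0.60). By 2-fold or more, 2 members rose, up to 1.29, and 5 fell. The 4 members of the unfolded protein response described here all fell and do not stand for the list. XBP1, the transcription factor at its centre, had 14.5, 18, 15.8 and 19.1 CPM in SK-3-91 libraries and 110, 107, 106 and 116 CPM in DMSO libraries (-2.70 ± 0.07; edgeR adjusted p = 6.2e-31). DNAJB9, a co-chaperone of the ER chaperone BiP, fell by 2.97 ± 0.16, HERPUD1, a scaffold of ER-associated degradation, by 2.32 ± 0.08, and the secreted factor gene MANF by 1.32 ± 0.06. Of 22 targets of the amino-acid stress factor ATF4, 13 were lower and 7 higher (median -0.34), that is 59.1% and 31.8%, with the hormone gene STC2 at -3.68 ± 0.15 and the amino-acid transporter gene SLC38A2 at -2.02 ± 0.05. Of 20 genes induced by hypoxia 13 were lower and 6 higher (median -0.90), that is 65% and 30%. RAB20, a small GTPase gene, had 0.209, 0, 0 and 0.205 CPM in SK-3-91 libraries and 2.44, 2.77, 2.38 and 3.57 CPM in DMSO libraries (-4.62 ± 0.41), and the circadian repressor gene BHLHE40 had 12.5 to 15.6 CPM in SK-3-91 libraries and 47.9 to 59.7 CPM in DMSO libraries. Sterol synthesis was mixed, with 12 of 25 lower and 11 higher: the mevalonate kinase gene MVK fell by 3.08 ± 0.11 and the demethylation enzyme gene MSMO1 rose by 1.37 ± 0.06.

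Immediate-early genes, which cells switch on within minutes of a stimulus, and feedback inhibitors of signalling mostly fell. Over all genes 45.9% were lower and 42% higher. Of 17 immediate-early genes 12 were lower and 4 higher (median -0.88); FOSL2, an AP-1 subunit gene, fell by 2.49 ± 0.13 and the MAP kinase phosphatase gene DUSP1 by 2.28 ± 0.17. KLF6 was the exception of size, with 196, 184, 199 and 214 CPM in SK-3-91 libraries and 49.8, 52.7, 53.7 and 49.5 CPM in DMSO libraries (1.95 ± 0.05; edgeR adjusted p = 2.9e-31). Of 18 dual-specificity phosphatases and ERK feedback genes 12 were lower and 4 higher (median -0.77), with DUSP7 at -1.83 ± 0.06 and DUSP5 at -3.63 ± 0.29, against PHLDA1 at 2.64 ± 0.27. Of 22 NF-kB genes 13 were lower and 5 higher (median -0.45); the inhibitor gene NFKBIE fell by 3.12 ± 0.15 and RELA, the p65 subunit gene, by 1.04 ± 0.05. In the JAK-STAT list 12 of 28 were higher (42.9%) and 13 lower (46.4%), near the shares of all genes. Within it the feedback inhibitor gene CISH fell by 3.10 ± 0.17 and the interferon receptor gene IFNAR1 by 2.25 ± 0.06. The inhibitors SOCS5 and SOCS6 rose by 1.78 ± 0.07 each. Of 30 cell death genes 19 were lower and 9 higher (median -0.53), among them RIPK1 at -1.54 ± 0.06 and the pore-forming gene BAK1 at -1.27 ± 0.08. Lower were 70.6% of the immediate-early, 66.7% of the phosphatase and feedback, 59.1% of the NF-kB and 63.3% of the cell death genes.

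T-lineage transcription factors fell with few exceptions. Of 24 measured factors of T-cell leukaemia and T-cell development 21 were lower and 3 higher (median -0.78), 7 of them by 2-fold or more downward and 0 upward. MYB, an oncogenic driver in this leukaemia, had 233, 230, 244 and 244 CPM in SK-3-91 libraries and 1103, 1099, 1084 and 1034 CPM in DMSO libraries (-2.18 ± 0.04; edgeR adjusted p = 2.3e-35). FLI1, an ETS factor gene, had 17.7 to 21.9 CPM in SK-3-91 libraries and 75.3 to 79.7 CPM in DMSO libraries (-1.93 ± 0.07), and ID3 fell by 2.83 ± 0.14. MYC had 374, 407, 385 and 380 CPM in SK-3-91 libraries and 734, 747, 761 and 747 CPM in DMSO libraries (-0.95 ± 0.04). NOTCH1, the receptor gene mutated in many T-cell leukaemias, fell by 1.11 ± 0.05 and its target gene DTX1 by 1.96 ± 0.07. Of 35 T-cell receptor signalling genes 19 were lower (54.3%) and 12 higher (34.3%), beside 45.9% and 42% of all genes. By 2-fold or more, 10 were lower and 0 higher. The adaptor gene LCP2 was at -1.96 ± 0.06 and GRAP2 at -1.59 ± 0.05. The summed level of the list was nevertheless higher with SK-3-91, at 7558 ± 103 CPM against 5919 ± 54.8 CPM in DMSO libraries (SD, n = 4 each). SELPLG, a selectin ligand gene, fell by 3.63 ± 0.07.

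Genes of transcriptional and cell-cycle kinases changed in both directions at the RNA level. CDK9, the P-TEFb kinase, had 45.3, 48.8, 51.7 and 52 CPM in SK-3-91 libraries and 54.6, 54.7, 59.5 and 60.6 CPM in DMSO libraries (-0.21 ± 0.06; edgeR adjusted p = 6e-04). CDK12 fell by 0.64 ± 0.04, CDK13 by 0.33 ± 0.05 and CDK7 by 1.10 ± 0.11, all called. CDK6 rose by 0.34 ± 0.04, and CDK4, with 43.2% of its exon bases opposite another gene and so uncertain, by 0.29 ± 0.05; without scaling factors CDK4 was at -0.01 and CDK6 at 0.04, and neither was called. The T-cell kinase gene LCK had a log2 fold change of 0.15 ± 0.04 and turned to -0.15 without scaling factors. PLK1 fell by 0.74 ± 0.04 and AURKA by 1.75 ± 0.06. CRBN, the substrate receptor of the cereblon ubiquitin ligase, fell by 0.28 ± 0.06, and MCL1, a short-lived survival factor gene, by 0.28 ± 0.04. ACTB, uncertain for shared sequence, rose by 0.91 ± 0.04. Over 96 other serine/threonine kinase genes 46 were lower and 38 higher, 11 lower by 2-fold or more and 6 at least 2-fold higher, which is 11.5% and 6.25% beside 18.2% and 9.2% of all genes. The measurements are of mRNA, so the amount of each kinase protein was not seen.

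Genes with few exons fell most often. Of 463 genes with 1 or 2 exons in the matched transcript, 42.8% were at least 2-fold lower. That share was 30.2% for 3 to 4 exons, 23% for 5 to 6, 18.4% for 7 to 9, 13.6% for 10 to 14, 10.8% for 15 to 24 and 5.14% for 25 or more. Zinc-finger genes, which have few exons, did not carry the order alone: without them the shares were 41.7%, 26.7%, 19.9%, 17.1%, 13.4%, 10.7% and 5.04%. Among all genes, those at least 2-fold higher were also more frequent at few exons. Their shares were 12.7%, 14.2% and 13% in the bins up to 6 exons and 6.24% to 8.48% in those above. By total gene span, 23.5% of the quintile of shortest genes and 8.17% of that of the longest were at least 2-fold lower. At least 2-fold higher were 17.3% and 6.23% of these quintiles, so short genes changed more often both ways. Genes at least 2-fold higher sat at the short end of transcript length, with 19.4% in the quintile of shortest transcripts (177 to 1886 bases) and 5.36% to 8.53% in the other quintiles. Setting aside ribosomal protein and oxidative phosphorylation genes, which are short, left 16.3% in that quintile. By copies of the decay-linked pentamer ATTTA in the 3' untranslated region, 15.8% of the lowest quintile were at least 2-fold higher, against 9.2% of all genes. The share was 10.4%, 6.56%, 5.55% and 6.66% in the quintiles above it. Some genes with no copy fell in the next quintile, so the cut between them is arbitrary. By length of the 3' untranslated region the share was 16.4% in the shortest quintile. At least 2-fold lower were 14% of the lowest ATTTA quintile and 13.5% of the highest. These shares describe genes of 1 comparison and carry no test, and exon number, length and mean level are tied to each other across genes. The deposited table holds few single-exon genes, 38 of those analysed.

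**Figure D4:**
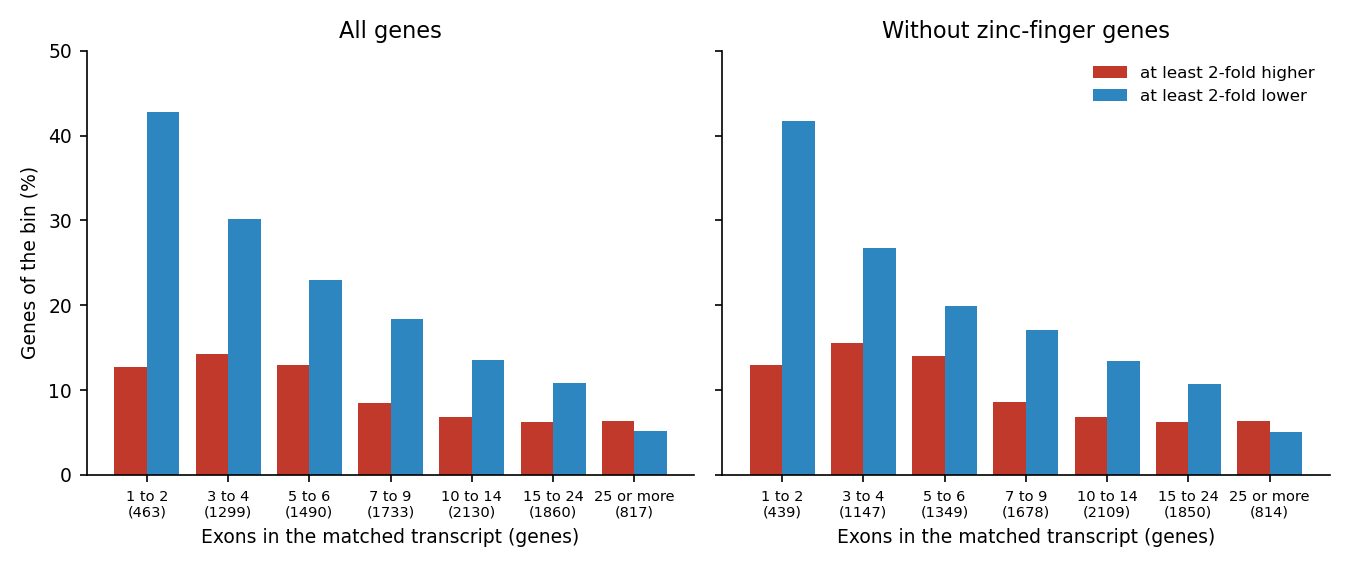
Share of genes at least 2-fold higher (red) and at least 2-fold lower (blue) with SK-3-91 at 4 h by the number of exons in the matched transcript, for all genes (left) and without zinc-finger genes (right), with the number of genes per bin in brackets. The share of lower genes steps down from 42.8% at 1 to 2 exons to 5.14% at 25 or more.

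The 4 h response stood between an early and a late state measured in separate libraries. At 1 h a change of 2-fold or more was found upward in 5 genes (0.0509%) and downward in 319 (3.25%), with 2448 called higher (24.9%) and 2889 called lower (29.4%). At 8 h it was found upward in 1652 (16.8%) and downward in 2306 (23.5%). Of the 1786 genes at least 2-fold lower at 4 h, 211 were so at 1 h, which is 11.8% of the 4 h list and 66.1% of the 1 h list. At 8 h 1484 were, 83.1% of the 4 h list and 64.4% of the 8 h list. Of the 904 genes at least 2-fold higher at 4 h, 827 were so at 8 h, 91.5% of the 4 h list and 50.1% of the 8 h list, and 4 at 1 h. No gene at least 2-fold apart at 4 h was at least 2-fold apart in the opposite direction at 8 h. Between 1 h and 4 h the response differed in 7901 genes (80.4%), with 3986 moving up (40.6%) and 3915 moving down (39.9%), and between 4 h and 8 h it differed in 6738 (68.6%).

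Some genes turned direction between 1 h and 4 h, while 3935 were called in the same direction at both times. Of the genes higher at 4 h, 586 had been called lower at 1 h, and of the genes lower at 4 h, 360 had been called higher. ATG14, which starts autophagosome formation, had 56.6, 56.9, 58.4 and 52.7 CPM in SK-3-91 libraries of 4 h and 15.9, 14.9, 13.3 and 12.6 CPM in DMSO libraries of 4 h (1.99 ± 0.07), after -0.71 at 1 h. TAF5L, a subunit of the SAGA coactivator, had log2 fold changes of -0.39 at 1 h and 1.52 at 4 h, CCNT2 of -0.36 and 1.44, and MSMO1 of -0.55 and 1.37. The interaction test between the times passed for each of these genes, with edgeR adjusted p = 1.2e-23 for ATG14. All 69 ribosomal protein genes had a response at 4 h above that at 1 h, their median being 0.25 at 1 h, 1.20 at 4 h and 1.42 at 8 h.

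For 928 genes the response was higher at 4 h than at both other times (9.45%), and for 971 it was lower (9.89%). PPFIA4, a liprin scaffold gene, had 22.5, 19.3, 24.7 and 22.9 CPM in SK-3-91 libraries and 4.44, 4.85, 6.19 and 6.63 CPM in DMSO libraries at 4 h (log2 fold change 2.01 ± 0.14), with 0.30 at 1 h and 0.32 at 8 h. CERCAM, an adhesion molecule gene, had 23.5, 24.5, 20.1 and 19.3 CPM in SK-3-91 libraries and 8.2, 8.63, 10.4 and 10.3 CPM in DMSO libraries (1.22 ± 0.10), with 0.15 at 1 h and -0.42 at 8 h. RALGPS1, an exchange factor gene of Ral GTPases, had 1.30 ± 0.15, the sugar epimerase gene RENBP 0.96 ± 0.13 and COMTD1 0.96 ± 0.13 at 4 h, and none of the 3 was called at 8 h. PAM, a peptide-amidating enzyme gene, had 0.82 ± 0.16, but SK-3-91 replicate 3 at 4.48 CPM fell within the DMSO range of 3.9 to 5.5 CPM.

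Among the transient decreases, MTFR2, a mitochondrial fission regulator gene, had 4.6, 4.36, 3.86 and 3.78 CPM in SK-3-91 libraries and 31.6, 30.2, 29.8 and 30.8 CPM in DMSO libraries at 4 h (-2.88 ± 0.11; edgeR adjusted p = 5.1e-25), with -0.66 at 1 h and -0.86 at 8 h. JMJD6, a lysyl hydroxylase gene that acts on splicing factors, had 15.8, 12.2, 15.5 and 17.8 CPM in SK-3-91 libraries and 52.5, 54.9, 53.2 and 56 CPM in DMSO libraries (-1.82 ± 0.08), with -0.15 at 1 h and -0.37 at 8 h. APPBP2, a cullin-2 substrate receptor gene, had -1.87 ± 0.07 at 4 h and -0.49 at 8 h. For these genes the 4 h change exceeded that at either other time by more than 1 log2 unit. TGIF1, a homeobox corepressor gene, the replication initiation gene TICRR and the deubiquitinase gene USP51 had -2.79 ± 0.13, -2.11 ± 0.06 and -3.48 ± 0.18 at 4 h and -1.58, -0.95 and -2.13 at 8 h. CDK7, the kinase of the general factor TFIIH, had log2 fold changes of -0.23 at 1 h, -1.10 at 4 h and -0.20 at 8 h.

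**Figure D5:**
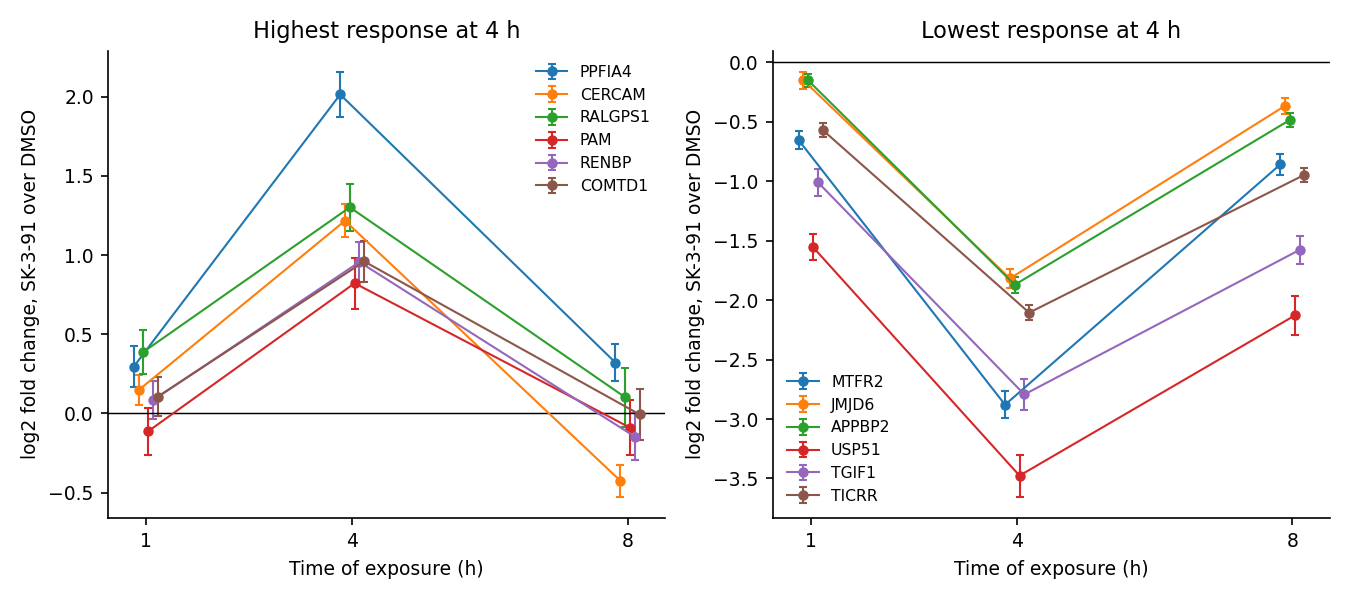
Log2 fold change, SK-3-91 over DMSO, at 1, 4 and 8 h for the 6 genes with the largest excess of the 4 h response in each direction. Bars are standard errors worked back from the F statistic of the fit to all 24 libraries, and points are offset sideways for legibility. PPFIA4 reaches 2.01 at 4 h and is at 0.32 at 8 h, and MTFR2 reaches -2.88 at 4 h and is at -0.86 at 8 h.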

How the data were processed

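Total RNA of MOLT4 cells was sequenced as 50-base single-end reads on a BGISEQ-500, per the labels' protocols. The authors deposited whole-number read counts per gene and library, made before deposit with hg19 and edgeR among their tools per the submitters' processing notes; no source used here names the aligner, counter, annotation or strand setting. A second deposited table, of log2 values, is a straight line in those counts and was used for gene symbols only.

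All 24 libraries were fitted together in edgeR 4.0.16 (R 4.3.3; limma 3.58.1) with TMM factors, the filterByExpr filter, 1 mean per group and the quasi-likelihood test; the 4 h contrast is SK-3-91 minus DMSO, p-values were adjusted over all 9822 genes, and the threshold was 0.05. Responses at 2 times were compared with interaction contrasts. The fit was tested on simulated data of the 4 h comparison (9820 genes), where it recovered every gene changed by 1 or 2 log2 units either way, 31 of 32 at -0.5 and 32 of 33 at 0.5, with 16 false calls. Most genes in that test were left unchanged, whereas 87.9% of genes were called in the 4 h comparison. How well the fit and its scaling recover changes when so many genes differ was not tested. Counting intervals (95%) and totals cover counting error only. Each standard error is the absolute log2 fold change divided by the square root of the F statistic.

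Genes were named by rule: the 10 largest changes each way at 5 CPM or more, the 6 largest each way at 100 CPM or more, up to 4 members of each of 68 lists at 2 CPM or more, the 6 genes each way with the largest excess at 4 h, and 17 fixed genes; genes with 20% or more of their sequence words shared or exon bases opposite another gene (GENCODE 29) were passed over, except fixed genes and markers. C17orf97, ZC3H10, IRF2BP2, CDK7, PLK1, AURKA, POLR2D, ZKSCAN4, ZSCAN26, RPLP1, RPL27, RPS21, RPL38, MRPL36, EIF1, HARS2, CCNF, ALDOC, NDUFV3, ATP5MG, PHLDA1, SOCS5 and BAK1 have smaller such shares of 10% or more. Members and lists were chosen with earlier results of these data known. Start windows are from RefSeq (GRCh38.p14); because the files use hg19, no gene coordinates were joined to them. Alternatives covered scaling, tool, filter, samples, replicate block and each replicate left out. Exon and length shares without whole families, and lists without uncertain members, were chosen after seeing the data. Some genes that the naming rule reached are not reported here.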

Additional observations from a re-analysis of the deposited data

Results flagged for a closer look

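In 1 of 122 sets of 4 libraries examined, 1 library stood apart from the rest: PKD1L3 had 0.701 CPM in DMSO replicate 4 and 0.313, 0.315 and 0.375 CPM in the other DMSO libraries. Chance alone gives such a gap in about 1 of 20 sets.

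The response to SK-3-91 differed between times by the interaction test of edgeR in 7901 genes between 4 h and 1 h and in 6738 genes between 8 h and 4 h. The genes whose 4 h response exceeded the nearer of the other times by most were, upward on the log2 scale, PPFIA4 by 1.69, CERCAM by 1.07, RALGPS1 by 0.91, PAM by 0.91, RENBP by 0.87 and COMTD1 by 0.85. Downward, the excess was -2.02 for MTFR2, -1.45 for JMJD6, -1.39 for APPBP2, -1.35 for USP51, -1.22 for TGIF1 and -1.16 for TICRR. Passing the interaction test against both 1 h and 8 h was a condition for choosing these 12 genes.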

How the results depend on the processing

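Of 286 named genes, 280 kept their direction and their side of the threshold under every alternative run. Without scaling factors 328 genes were at least 2-fold higher and 923 were higher against a minimum fold of 1.5, and direction turned for CDK4 (-0.01138), LCK (-0.147), H2AZ1 (-0.04155) and H3-3B (-0.133); CDK6 (0.04125) and EPHB4 (0.2176) were no longer called; the median of all genes shifts by construction. Demanding a minimum fold of 2 in place of 1.5 left 629 genes higher and 1492 lower. The split without scaling factors was 2871 genes higher and 5752 lower. The other settings left 3877 to 4324 genes higher and 4266 to 4766 lower. With 1 library left out in turn, counts ran from 4059 to 4103 genes higher, 4435 to 4468 lower, 876 to 931 at least 2-fold higher, 1782 to 1806 at least 2-fold lower, 1890 to 1926 higher and 2477 to 2512 lower against the minimum fold of 1.5, 7759 to 7820 differing from 1 h, 6561 to 6669 differing from 8 h, 857 to 948 highest and 912 to 949 lowest at 4 h, and SK-3-91 totals were 74.43% to 75.02% of DMSO. Same-numbered libraries of the 2 groups did not deviate together (correlations of -0.0815 to 0.00738, and none was highest with its own number); with the replicate number as a block 4123 genes were higher and 4504 lower, and 905 at least 2-fold higher. Genes under about 1 CPM in a group rest on few reads, so their fold changes are the least precise.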
